A study of Homo sapiens with 12 samples.

Results

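The 9 PAX genes, PAX1 to PAX9, were examined for histone H3 trimethylated at lysine 27 (H3K27me3) in the human neuroblastoma line SH-SY5Y. They were taken by name from the 20033 protein-coding genes of GENCODE release 44, and each was read with 5 kb on each side, so that the 9 windows held 741 kb in all. Chromatin immunoprecipitation (ChIP) with an antibody against H3K27me3 was done to ask whether the mark differs between cells with and without the protein Tau. WT were SH-SY5Y cells that express Tau. 231K and 232P were separate lines of the same cells in which Tau was knocked out (Tau-KO), and whether each line is a single clone is not given in the sources used here. Each genotype had 2 biological replicates and each replicate had 1 list of peaks, which makes 6 lists. The input libraries were not analysed here. The peaks in both lists labelled 232P have names that start with 231P, another Tau-KO line of the study, and which of the lines these lists come from could not be settled.

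PAX proteins are transcription factors with a paired DNA-binding domain that direct the formation of organs and cell types in the embryo. PAX3 and PAX7 act in the neural crest, the neural tube and muscle, PAX6 in the eye and brain, PAX2 and PAX8 in the kidney, PAX8 also in the thyroid, PAX1 and PAX9 in the skeleton, PAX9 also in teeth and pharyngeal pouches, PAX4 in the endocrine pancreas and PAX5 in B cells. Polycomb repressive complex 2 places H3K27me3 at silent developmental genes of this kind, often over broad stretches that include CpG-rich promoters.

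Replicate 1 had 285826 peaks in WT, 271413 in 231K and 147118 in 232P, and replicate 2 had 222191, 212347 and 199677. Pairs of values below give replicate 1 first. The list of 232P replicate 1 stood apart, with 70.3 Mb of the genome in peaks where the other 5 lists held between 197 and 290 Mb. The background over the whole genome, recovered from the peak statistics, was 1.52 and 1.38 reads per position in WT, 1.44 and 1.399 in 231K, and 1.01 and 1.27 in 232P. It was thus lowest in 232P replicate 1, whose peaks were also the narrowest, with a median width of 335 bp. The smallest peak was 175 to 179 bp wide in each replicate 1 and 240 to 262 bp in each replicate 2. The numbers of reads are not in the lists, so a missing peak means only that none passed the threshold at that depth. Scaled to the smallest peak width, taken as the fragment length, the background gives a relative depth of 100% and 66.6% for WT, 94.8% and 68.7% for 231K and 68.1% and 56.9% for 232P, so that 232P replicate 1 was not the shallowest by this measure. The main results that rest on 232P replicate 1 are also given without it. A lower covered length can mean fewer cells with the mark, less of it in each cell, or only fewer peaks past the threshold. These cannot be told apart here. The 2 lists of 232P alone held 70.3 and 212 Mb in peaks.

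The cell identity was checked with marker genes. Of 9 genes of noradrenergic neuroblastoma cells, the state to which SH-SY5Y belongs, 7 had no peak in any list (PHOX2A, HAND2, GATA2, GATA3, ISL1, TH and DBH), which was the case for 68.3% of all genes, so that this count says little about the state. Of 6 genes of the mesenchymal state, PRRX1, RUNX1 and RUNX2 had a peak at a start site in all 6 lists, against 11.4% of all genes. TWIST1, SNAI2 and FOSL1 had one in no list, which was the case for 15637 of the 20033 genes. All 6 genes of other lineages, which were MYOD1, MYF5, GATA1, CDX2, NKX2-5 and ALB, had a peak in their window in all 6 lists, against 19.7% of all genes. At a start site, 4 of them had one in all 6 lists (not MYOD1 and GATA1), against 11.4% of all genes.

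The 250 bases before the start of 6 PAX genes are printed here because they differ in the number of CG dinucleotides and in whether the mark covers the start. The start is that of the canonical transcript of GENCODE, sequences are from hg38 in the direction of transcription, no annotated exon of a PAX gene lies in them, and capitals mark each CG.
PAX2 (chr10:100745332-100745581, plus strand): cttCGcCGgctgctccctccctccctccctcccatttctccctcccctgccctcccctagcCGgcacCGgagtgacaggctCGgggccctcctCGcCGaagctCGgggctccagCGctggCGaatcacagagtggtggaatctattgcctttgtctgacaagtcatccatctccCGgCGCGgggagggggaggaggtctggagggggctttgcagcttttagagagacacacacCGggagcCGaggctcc
PAX3 (chr2:222298999-222299248, minus strand): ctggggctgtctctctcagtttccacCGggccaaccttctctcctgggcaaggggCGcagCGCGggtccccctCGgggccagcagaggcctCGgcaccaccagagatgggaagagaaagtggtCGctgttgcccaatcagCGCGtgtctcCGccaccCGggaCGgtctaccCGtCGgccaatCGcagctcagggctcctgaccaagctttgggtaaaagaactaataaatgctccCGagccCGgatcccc
PAX8 (chr2:113278922-113279171, minus strand): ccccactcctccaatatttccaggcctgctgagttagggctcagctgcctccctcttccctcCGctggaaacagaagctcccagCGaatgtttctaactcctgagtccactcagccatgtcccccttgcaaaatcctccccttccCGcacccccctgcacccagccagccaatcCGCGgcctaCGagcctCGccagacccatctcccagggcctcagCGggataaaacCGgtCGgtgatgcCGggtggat
PAX7 (chr1:18630596-18630845, plus strand): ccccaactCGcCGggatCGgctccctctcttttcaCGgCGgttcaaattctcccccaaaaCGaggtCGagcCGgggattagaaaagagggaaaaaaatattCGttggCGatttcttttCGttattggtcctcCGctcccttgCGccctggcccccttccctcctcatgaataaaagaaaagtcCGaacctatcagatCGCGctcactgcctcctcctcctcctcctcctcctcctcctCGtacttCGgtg
PAX4 (chr7:127618143-127618392, minus strand): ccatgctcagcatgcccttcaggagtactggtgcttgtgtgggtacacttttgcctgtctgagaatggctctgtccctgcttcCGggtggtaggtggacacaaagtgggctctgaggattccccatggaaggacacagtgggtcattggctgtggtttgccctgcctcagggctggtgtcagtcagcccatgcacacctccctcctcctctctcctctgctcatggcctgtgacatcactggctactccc
PAX5 (chr9:37034269-37034518, minus strand): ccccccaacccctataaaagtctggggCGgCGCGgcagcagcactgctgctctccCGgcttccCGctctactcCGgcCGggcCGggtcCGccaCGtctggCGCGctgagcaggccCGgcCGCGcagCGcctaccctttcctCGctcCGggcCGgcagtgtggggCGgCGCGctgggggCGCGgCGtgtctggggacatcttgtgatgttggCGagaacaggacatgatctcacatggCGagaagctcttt

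These stretches hold 15 CG dinucleotides for PAX2, 17 for PAX3, 11 for PAX8, 18 for PAX7, 1 for PAX4 and 27 for PAX5, and the median over all 20033 genes was 18. PAX4 was the exception, with a count higher than that of 2.88% of all genes only. PAX5 was above 75% of the genes.

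H3K27me3 marked 8 of the 9 PAX genes in every list, and PAX5 was the exception. PAX1, PAX2, PAX3, PAX4, PAX6, PAX7, PAX8 and PAX9 had a peak in their window in all 6 lists, against the same 19.7% of all protein-coding genes. The same 8 genes had a peak within 1 kb of an annotated start site (TSS mark) in all 6 lists, against 11.4% of all genes. With peaks of a -log10 q-value of at least 5 alone, 5 PAX genes had one in all 6 lists, against 2.78% of all genes. PAX5, the largest of the 9 genes with 201 kb, had 1 peak in 1 list, and 72.1% of all genes had a peak in at most 1 list. This peak, in 231K replicate 1, was 183 bp wide, lay in the gene 11.3 kb from the start and had 5 reads at its summit, a fold enrichment of 2.46 over the local background and a -log10 q-value of 1.05. It ranked above 0.479% of the peaks of its list only. The peak nearest to the PAX5 start was 266.1 and 266.6 kb away in WT, 617.4 kb in 231K replicate 2, and 1156 and 617.7 kb in 232P.

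The share of the window in peaks, here called coverage, was highest in PAX3 and, among the marked genes, lowest in PAX2. Over all genes the median coverage was 0% in each list. For PAX3, on chromosome 2 from 222199887 to 222298998, the WT samples had a coverage of 76.7% (replicate 1) and 91.0% (replicate 2), the 231K samples of 76.96% and 95.8%, and the 232P samples of 37.1% and 84.5%. Its lowest value was in 232P replicate 1, and the other 5 lists put PAX3 above each other PAX gene. For PAX1, on chromosome 20 from 21705659 to 21718481, it was 61.7% and 55.3% in WT, 54.3% and 57.8% in 231K, and 52.3% and 36.1% in 232P. Both 232P samples were thus below the other 4, and the lowest was replicate 2.

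PAX6, on chromosome 11 from 31784779 to 31817961, had a coverage of 39.7% and 39.2% in WT, 30.6% and 40.6% in 231K, and 35.9% and 29.6% in 232P. PAX9, on chromosome 14 from 36657568 to 36679362, had 31.5% and 46.9% in WT, 32.6% and 41.4% in 231K, and 18.6% and 23.7% in 232P. In PAX6 both 232P samples were below both WT samples and 231K overlapped both, while in PAX9 both 232P samples were the lowest of the 6. PAX8, on chromosome 2 from 113215997 to 113278921, had 33.8% and 35.7% in WT, 28.9% and 35.8% in 231K, and 14.1% and 29.3% in 232P. PAX4, on chromosome 7 from 127610292 to 127618142, had 31.0% and 44.9% in WT, 23.9% and 28.2% in 231K, and 30.4% and 23.8% in 232P. PAX4 was the only one of the 8 genes in which all 4 Tau-KO samples were below both WT samples, the nearest by less than a percentage point. The local background at the PAX4 peaks was raised and uneven. As a median it was 1.91 and 1.09 times the background over the whole genome in WT, 1.84 and 1.05 times in 231K, and 1.45 and 1.41 times in 232P. At the other marked genes it was at most 1.23 times in any list. The part of this background in the PAX4 values was not tested. Of the 5598 genes with a peak in at least 2 lists, both 231K samples were below both WT samples in 12.5%. Both 232P samples were below them in 48.3%, and the share with both patterns was not determined.

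PAX7, on chromosome 1 from 18630846 to 18748866, had a coverage of 15.3% and 16.6% in WT, 14.6% and 19.5% in 231K, and 10.6% and 12.5% in 232P. PAX2, on chromosome 10 from 100735396 to 100829944, had 12.4% and 11.1% in WT, 9.03% and 13.6% in 231K, and 9.40% and 7.14% in 232P. These are the lowest of the marked genes, and both are long genes marked mainly at their 5′ end. By the median over the 6 lists the order was PAX3 (80.7%), PAX1 (54.8%), PAX6 (37.6%), PAX9 (32.0%), PAX8 (31.5%), PAX4 (29.3%), PAX7 (15.0%), PAX2 (10.2%) and PAX5 (0%). Between neighbours in this order, the ranges over the lists were apart only for PAX4 and PAX7 and for PAX2 and PAX5. Neighbours among PAX6, PAX9, PAX8 and PAX4 changed places between lists, while PAX6 was above PAX8 in each list.

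**Figure D1:**
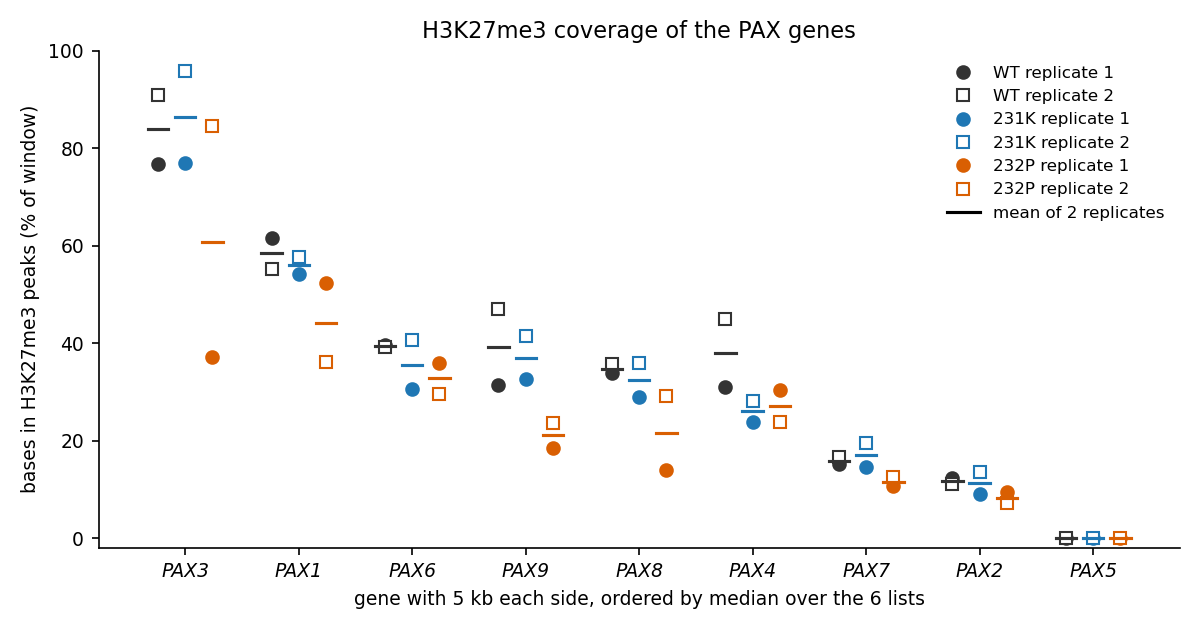
Share of each PAX window (gene with 5 kb each side) that lies in H3K27me3 peaks, in percent, for the 6 samples; filled circles are replicate 1, open squares replicate 2, and bars the mean of the 2 replicates. PAX5 is at or near 0 in all samples, and PAX3 is the highest in all but 232P replicate 1, where it is at 37.1% and PAX1 at 52.3%.

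The height of the peaks differed less between the genes than their coverage. The highest fold enrichment in the window had a median over the lists from 7.17 in PAX9 to 9.89 in PAX7. For PAX7 it was 10.2 and 9.25 in WT, 9.84 and 11.7 in 231K, and 9.94 and 7.06 in 232P. For PAX8 it was 7.003 and 8.39 in WT, 8.20 and 12.1 in 231K, and 7.95 and 7.06 in 232P. PAX7, with little of its length covered, thus had the highest peaks by this median. In both genes the WT values overlapped those of 231K and of 232P. Both 232P samples were below both WT samples at PAX2 (7.46 and 5.30 against 9.13 and 7.99) and at PAX6 (6.96 and 7.50 against 7.54 and 11.3). They were below both 231K samples at PAX2, PAX6, PAX8 and PAX9. No marked gene showed the reverse of either, and the share of all genes with these patterns was not determined. Over the 3939 genes with a peak in all 6 lists, the median of the highest fold enrichment was 5.79 and 6.39 in WT. It was 5.74 and 6.94 in 231K and 5.33 and 5.74 in 232P, so that lower values in 232P were not confined to the PAX genes. The highest -log10 q-value of PAX7 was 17.3 and 15.0 in WT, 15.6 and 21.1 in 231K, and 13.1 and 8.27 in 232P. By this value both 232P samples were below both WT samples at PAX1, PAX2, PAX6, PAX7, PAX8 and PAX9. At PAX3 and PAX4 they overlapped, and the share of all genes was again not determined. The highest -log10 q-value anywhere in a list was also lower in 232P, at 55.3 and 56.4. It was 101.7 and 86.2 in WT and 117.3 and 125.5 in 231K. The strongest PAX7 peak exceeded between 98.0% and 99.9% of the peaks of its list. At the 8 marked genes the highest summit held between 11 and 28 reads, with a median of 19.5, so that each value rests on few reads.

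The mark was laid out differently along the genes. Each gene was cut into 3 equal parts in the direction of transcription, and the median coverage over the 6 lists is given. The parts and flanks were counted from the outer ends of the annotated gene. In PAX2, PAX6 and PAX9 the gene begins several kb before the canonical start used elsewhere. PAX3 was covered alike in its first, middle and last part, with 81.5%, 82.3% and 82.1%. PAX8 had 79.7% in the first part, 16.8% in the middle part and 0% in the last part, and the last part was at 0% in each of the 6 lists. PAX2 had 26.999% in the first part and 0% in the middle part in each list, and PAX4 had 87.4%, 38.4% and 0%. In PAX7 the parts had 33.1%, 2.67% and 4.39%, and in PAX6 47.7%, 65.7% and 6.32%. PAX1 went the other way, with 45.04% in the first part and 80.4% and 82.2% in the others. PAX9 was covered most in the 5 kb upstream of the annotated gene, at 71.1%, against 33.4% in its first part. That gene begins at 36657568, while its canonical start is at 36661860.

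The place where the domain at the start ended is given over the lists for each marked gene. Peaks of a list less than 5 kb apart were chained for this, since a gap of 1 kb broke the domains of some lists. In PAX7, the downstream end lay 18.0 to 21.95 kb after the start, in intron 4 of the canonical transcript in all 6 lists. In PAX2 it lay 6.32 to 11.7 kb after the start, in intron 3 in all 6 lists. In PAX8 it lay in intron 2 in all 6 lists, 25.5 to 26.4 kb after the start in 5 of them and 14.2 kb after it in 232P replicate 1. Without that sample, the ends at PAX8 lay within 0.942 kb of each other. In PAX6 the ends lay 14.5 to 18.8 kb after the start. They were spread over 21.7 kb in PAX1 and 36.0 kb in PAX3, and over 5.48 and 2.08 kb without 232P replicate 1. In PAX9 the spread was 23.1 kb with that sample and 20.4 kb without it. The domain of PAX4 had ends 2.29 to 5.33 kb after the start and reached least far in each list but 232P replicate 1. In that sample it ended at 3.92 kb and the domain of PAX9 at 3.51 kb.

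PAX3 lay inside a domain that ran past the gene on both sides. With chains over 5 kb it was 157.9 kb long as the median over the lists, with 159.0 kb as the highest value and 121.9 kb in 232P replicate 1. With a gap of 1 kb the longest PAX3 domain ranged from 28.1 to 158.5 kb. In 232P replicate 1 the coverage of PAX3 was 95.4% in the 5 kb upstream, 49.4% in the first part of the gene, 29.3% in the middle part and 22.7% in the last part. In the other 5 lists no part of the gene was below 74.2%. In the 5 kb downstream of the gene it was 44.6%. The PAX3 mark of 232P replicate 1 was thus highest upstream of the start and lowest in the last part of the gene. The widest stretch in peaks of at least 1 list that all 6 lists touched was also in PAX3, with 87934 bp.

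**Figure D2:**
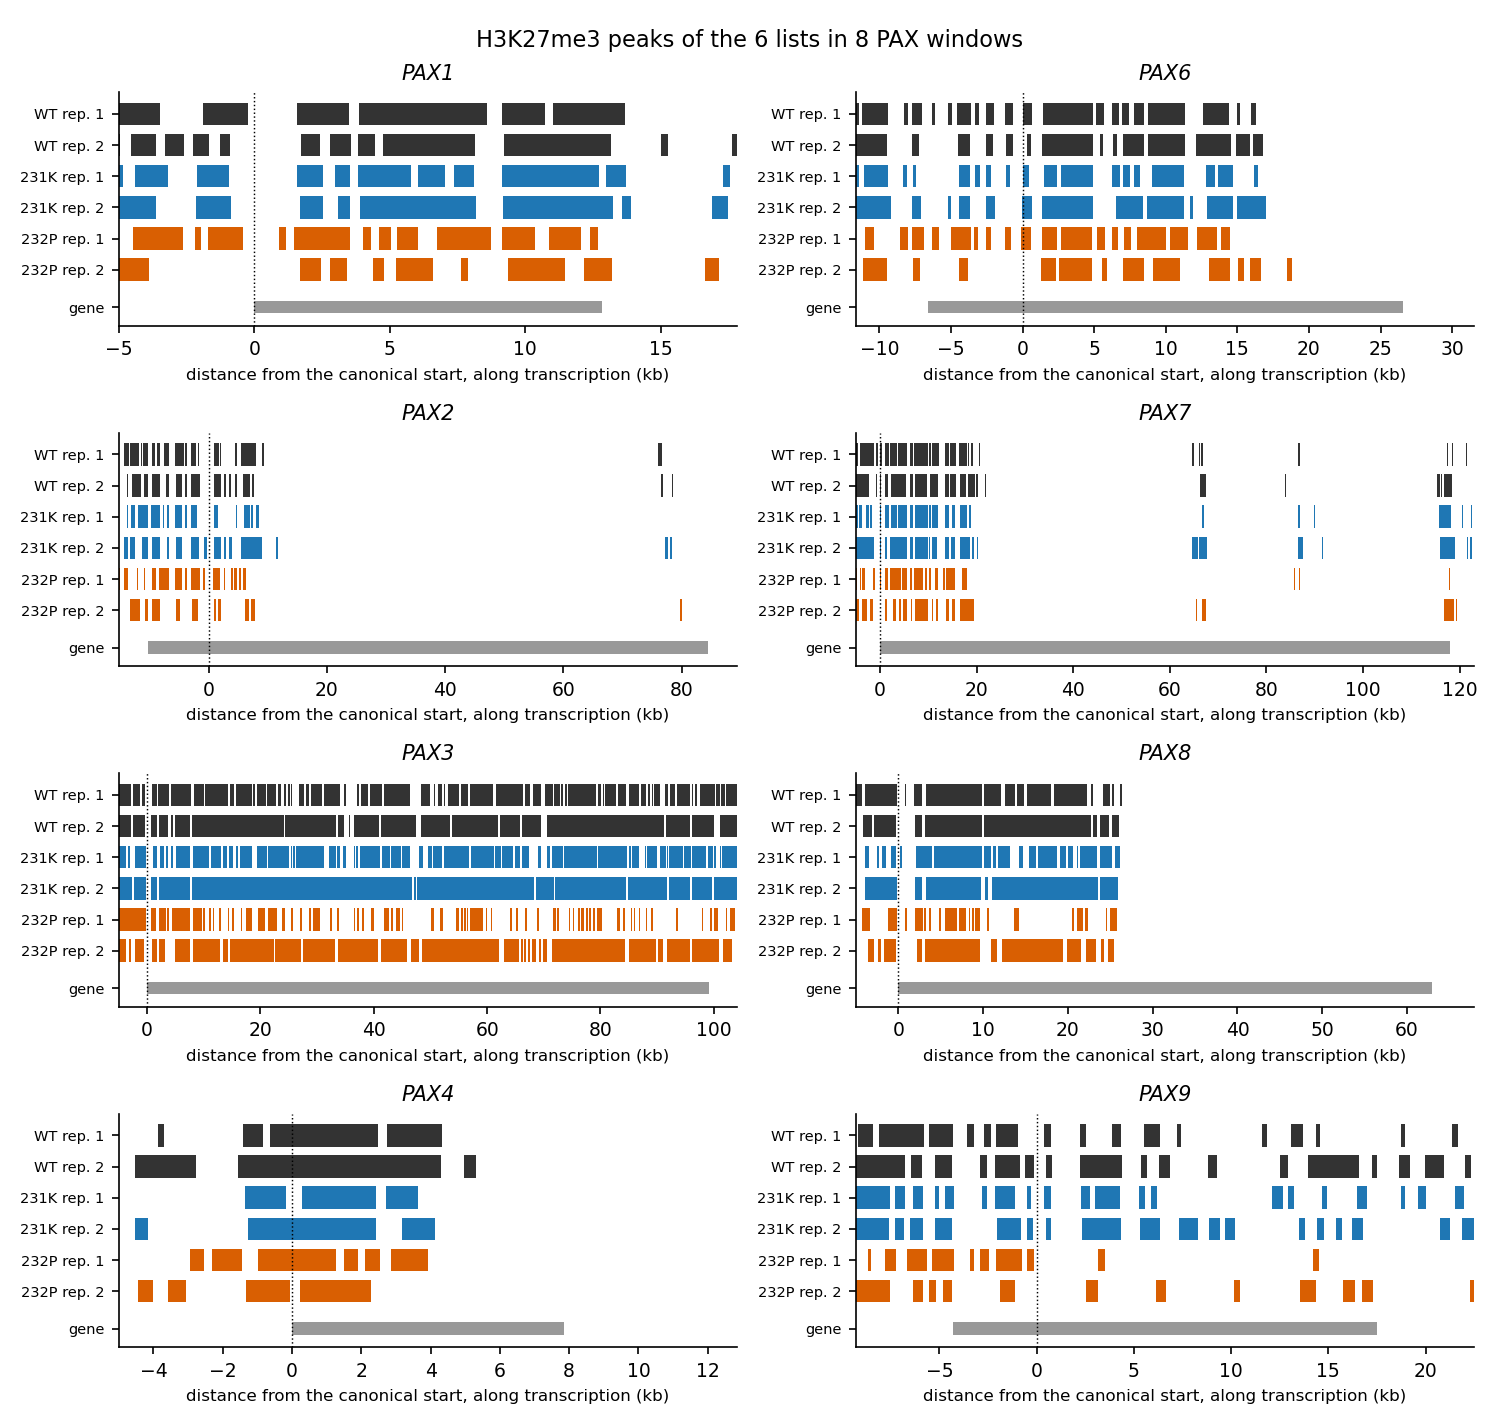
Peaks of the 6 lists in the windows of the 8 marked PAX genes; the x axis is the distance from the canonical start in kb, in the direction of transcription, coloured bars are peaks, the grey bar is the gene and the dotted line the start. PAX3 has peaks from end to end, with wide gaps between them in 232P replicate 1, while in PAX2, PAX7 and PAX8 the domain at the start ends within 11.7, 21.95 and 26.4 kb of the start, and PAX2 and PAX7 have small peaks further downstream.

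The start itself was often left out of the mark. The base at the canonical start was in no peak of any list in 5 of the 8 marked genes, namely PAX1, PAX2, PAX3, PAX8 and PAX9, and in 51.9% of the 3130 protein-coding genes with a peak within 5 kb of the start in all 6 lists. The stretch without a peak in any list around the start was 1168 bp at PAX1 (chr20:21705421-21706588), 1136 bp at PAX2 (chr10:100745239-100746374) and 916 bp at PAX3 (chr2:222298314-222299229). It was shorter at PAX9 (498 bp, chr14:36661723-36662220) and PAX8 (319 bp, chr2:113278706-113279024). The PAX2, PAX3 and PAX8 sequences printed above lie in or reach into these stretches. In PAX6 the start base was in a peak of 2 lists, in PAX4 of 4 lists and in PAX7 of 5 lists.

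The loss of coverage at the start was seen in each sample. Over the 8 genes, the 500 bp on each side of the start had a mean coverage of 34.6% and 27.3% in WT, 26.8% and 37.0% in 231K, and 37.4% and 11.3% in 232P. From 1.5 to 5 kb on each side it was 64.7% and 67.6% in WT, 51.5% and 64.0% in 231K, and 56.3% and 39.3% in 232P. The coverage was lower at the start in 7 of 8 genes in 5 lists and in 5 of 8 genes in 232P replicate 1. PAX4 was the gene that went the other way in all 6 lists, with 54.4% to 100% at its start and 24.6% to 67.0% beside it. Of the 3130 genes, between 62.0% and 72.6% had less coverage at the start, so that a dip at the start was common among marked genes.

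Over all marked genes, a start base outside every peak went with the base composition of the start. The PAX genes did not follow that relation one by one. A start was called CpG-rich here when the 500 bp on each side had at least 55% G or C and a ratio of observed to expected CG of at least 0.65. Of the 3130 marked genes, 1146 had a CpG-rich start, and 93.2% of these had the start base in no peak of any list, against 28.0% of the 1984 other genes. PAX4, with 4 CG dinucleotides in these 1000 bases and a ratio of 0.0616, was the PAX gene with the fewest. Its start base was in a peak of 4 lists. PAX7 had a CpG-rich start, with 76 CG dinucleotides and a ratio of 0.817, and its start base was nevertheless in a peak of 5 lists, while in the sixth, 232P replicate 2, the nearest peak was 1120 bp away. PAX1, PAX2, PAX3 and PAX6 also had a CpG-rich start, and PAX8 and PAX9, with ratios of 0.383 and 0.645, fell short of the definition although their start base was in no peak. PAX5 had 71 CG dinucleotides and a ratio of 0.884, and no peak near its start in any list. The dip, as coverage at the start against that beside it, was not compared between CpG-rich and other starts. The part of base composition in the dip, including how well such sequence is read, was not tested.

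**Figure D3:**
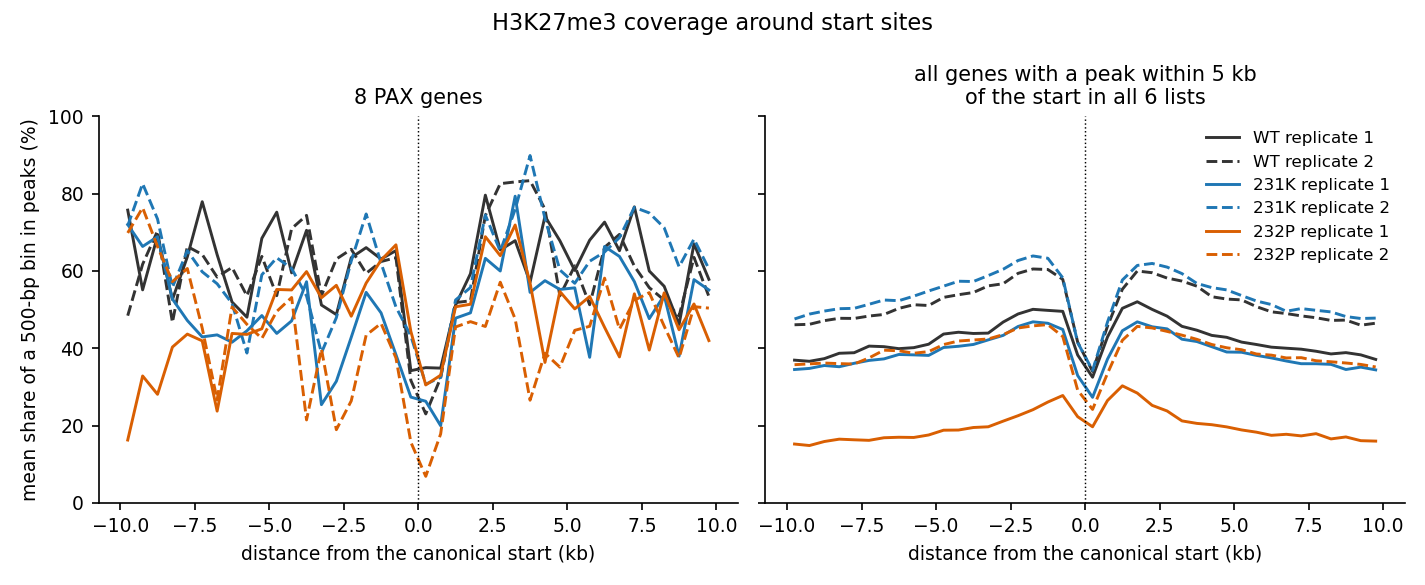
Mean share of 500-bp bins that lie in peaks, in percent, against the distance from the canonical start in kb, for each of the 6 samples (solid, replicate 1; dashed, replicate 2); left, the 8 marked PAX genes; right, the 3130 genes with a peak within 5 kb of the start in all 6 lists. Coverage dips at the start on both sides, and 232P replicate 1 is the lowest in every bin over the 3130 genes, while over the PAX genes 232P replicate 2 is the lowest within 2.75 kb of the start.

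Between genotypes, coverage of the PAX windows was about the same in WT and 231K and lower in 232P. The 9 windows together were covered to 26.9% ± 2.19 in WT, 26.5% ± 4.30 in 231K and 19.1% ± 5.42 in 232P (SD, n = 2 each). By sample it was 25.3% and 28.4% in WT, 23.4% and 29.5% in 231K, and 15.2% and 22.9% in 232P. The windows of all protein-coding genes had 5.75% and 7.51% in WT, 5.35% and 7.84% in 231K, and 2.08% and 5.67% in 232P. In both sets both 232P samples were below both WT samples, over all genes by a small margin in replicate 2, and 231K lay on both sides of WT. In each genotype the gap between the replicates was as large as, or larger than, the gap between the means of WT and 231K.

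Both 232P samples were below both WT samples in 7 of the 8 marked genes, all but PAX3, and this was the case for 48.3% of the 5598 genes with a peak in at least 2 lists. The reverse, both WT samples below both 232P samples, was seen in none of the 8 and in 0.697% of all genes. With 232P replicate 1 left out, replicate 2 was below both WT samples in the same number, 7 of 8, against 51.9% of all genes, and replicate 1 alone in 8 of 8, against 80.9%. Within replicate 1 and within replicate 2, whose smallest peaks differed in width, 232P was below WT in all 8 genes, PAX3 included, against 74% of all genes. With as many of the strongest peaks in each list as the smallest list holds, both 232P samples were below both WT samples in 6 of 8, against 32.2%. Both 231K samples were below both WT samples in PAX4 only, against 12.5% of all genes, and both WT samples were below both 231K samples in none, against 5.32%. Both 232P samples were below both 231K samples in PAX1, PAX7 and PAX9, against 37.8%, and the reverse was seen in none, against 0.661%. Lower coverage in 232P was thus frequent among all genes and was found in the PAX genes as well.

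A fit across all genes made no calls, and with 2 samples a group and the spread between them this does not show that the PAX genes were unchanged. In limma on the covered length (log2 of base pairs plus 200, each sample centred on its median over the 5598 genes, Benjamini-Hochberg adjustment), 0% of the genes passed an adjusted p of 0.05 in either direction in 231K against WT, in 232P against WT and in 232P against 231K. At an unadjusted p under 0.05, 172, 327 and 294 genes passed, none of them a PAX gene. In 231K against WT the log2 change of the 8 genes was between -0.44 in PAX4 and 0.15 in PAX7, with a median of -0.01, where the median of all genes was 0.03 (limma adjusted p = 1 for each). For PAX3, the gene with the smallest standard error, it was 0.11 with a 95% interval from -0.86 to 1.07. The intervals of the other 7 genes were wider.

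In 232P against WT the direction depended on the scaling. Relative to the median gene of each sample, the 8 genes were between 0.27 (PAX9) and 0.86 (PAX6) higher on the log2 scale (limma adjusted p between 0.788 and 0.88), where the median change of all genes was 0.22. Without centring, the change was below 0 in all 8 genes, from -0.85 in PAX9 to -0.27 in PAX6, where that of the median gene was -0.91. The PAX genes thus had less covered length in 232P than in WT, by a smaller factor than the median gene. This rested on 232P replicate 1, in which the median covered length of the 5598 genes was 1216 bp, against 3509 bp in 232P replicate 2 and 3530 to 5940 bp in the other samples. Without that sample, 4 of the 8 centred changes were below 0 and 4 above, from -0.27 in PAX2 to 0.44 in PAX3. In 232P against 231K the centred changes lay between 0.27 and 1.11, with limma adjusted p between 0.801 and 0.891. There too the direction depended on the scaling and on 232P replicate 1, since 7 of the 8 changes were below 0 without centring (-0.79 to 0.05) and 4 of 8 without that sample (-0.27 to 0.33).

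**Figure D4:**
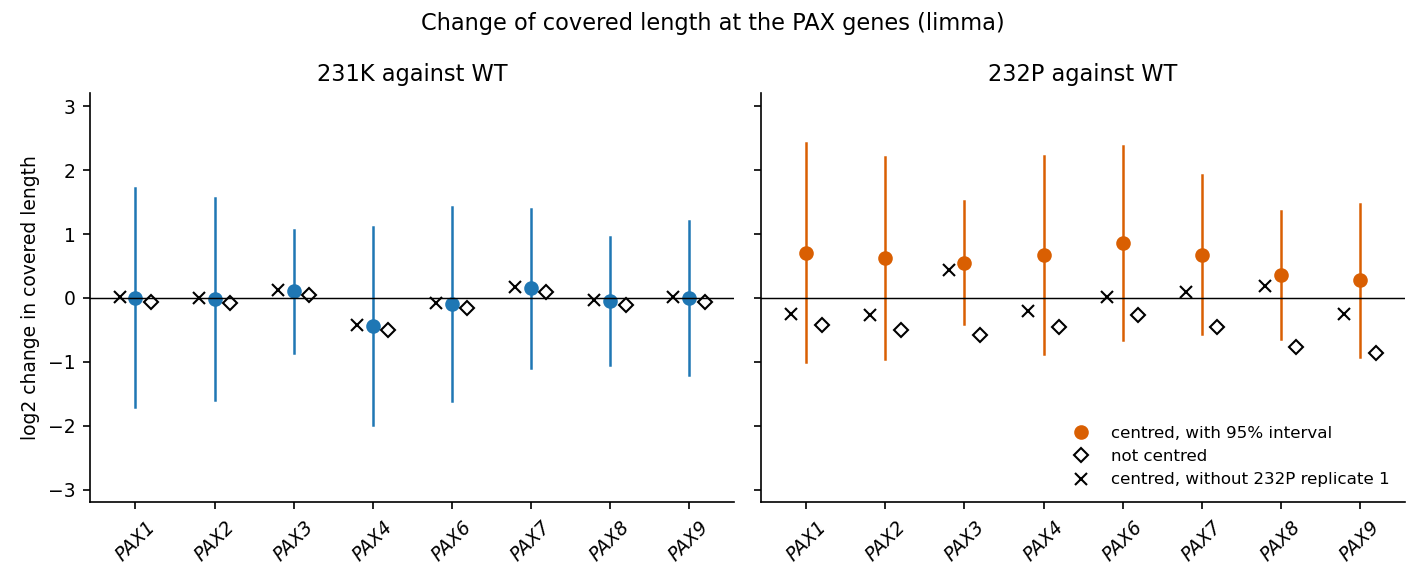
Log2 change of the covered length of the 8 marked PAX genes in 231K (left) and 232P (right) against WT from limma; circles are centred on the median gene and bars are 95% intervals, diamonds are not centred, and crosses are centred with 232P replicate 1 left out. All intervals include 0, and in 232P the circles are above 0 and the diamonds below it.

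The height of the peaks gave no call either, with the same limit. In limma on the log2 of the highest fold enrichment, over 3939 genes with a peak in all 6 lists, 0% passed in 231K against WT and 0% in 232P against WT, in either direction, and 160 genes in each had an unadjusted p under 0.05, none of them a PAX gene. The largest of the PAX changes were 0.32 in PAX8 in 231K, with a 95% interval from -0.10 to 0.75, and 0.31 in PAX4 in 232P, with an interval from -0.29 to 0.90 (limma adjusted p = 1 and 0.998). In PAX2 it was -0.30 in 232P, with an interval from -0.79 to 0.18. These values were centred on the median of each sample, and 5 of the 8 changes in 232P were below 0. Without centring, 7 of 8 were below 0, from -0.44 to 0.17. The centred 232P changes ran from -0.55 to 0.53 without 232P replicate 1. They ran from -0.44 to 0.07 without WT replicate 1 and from -0.48 to 0.73 without WT replicate 2. In 231K they ran from -0.22 to 0.17 without 231K replicate 2. Fold enrichment is taken over the local background, which at PAX4 differed between the samples as given above.

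Peaks of all lists that overlap were merged to 102 marks in the 9 windows. Of these, 40 were in all 6 lists, against 15.2% of the 94176 marks in the windows of all protein-coding genes, and 22 were in 1 list, against 43%. In both WT samples and in no Tau-KO sample were 2, against 2.01%. One of these was an 846 bp mark in the last of the 3 equal parts of PAX2 (chr10:100821640-100822485), and the other, 497 bp wide, lay just before the start of PAX7 (chr1:18629925-18630421). No mark was in all 4 Tau-KO samples and in no WT sample, against 0.0616%. PAX3 had 5 marks, all in 6 lists, while PAX7 had the most, 25, with 9 in all lists and 8 in 1 list. The marks missing from some samples were mainly those of PAX7, PAX2, PAX9 and PAX6, which also had the most marks. These were 25, 19, 18 and 16 marks, of which 9, 6, 5 and 6 were in all lists.

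PAX proteins act in a network of regulators of early organ formation with DNA-binding proteins such as SIX2 and with their cofactors of the EYA and DACH families. Of the 11 genes SIX2 to SIX6, EYA1 to EYA4, DACH1 and DACH2, 3 had a peak and a TSS mark in all 6 lists, and 5 had no peak in any list (SIX3, SIX5, SIX6, EYA1 and EYA3). DACH2, a cofactor, had a coverage of 17.3% and 25.9% in WT, 13.2% and 23.8% in 231K, and 2.19% and 16.3% in 232P. EYA2 had a median of 11.1% and EYA4 of 8.97%. At DACH2 both 232P samples were below both WT samples, replicate 1 by far the lowest, and 231K overlapped both. SIX2 had a peak in 4 lists, DACH1 in 3 and SIX4 in 1. A peak in all 6 lists was found for 27.3% of these 11 genes, 88.9% of the PAX genes and 19.7% of all genes. Over the full list of 12 network genes it was 33.3%. Of other families of developmental regulators, 30 of 39 HOX genes, 5 of 19 SOX genes and 5 of 13 TBX genes had a peak in all 6 lists. The median coverage was 70.5% over the HOX genes, which lie in clusters, and 31.5% over the 9 PAX genes, where SOX had 0.0547% and TBX 0%.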

How the data were processed

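H3K27me3 ChIP was analysed in 6 samples of SH-SY5Y cells, 2 biological replicates each of WT, 231K and 232P. Groups were taken from the sample labels. Per the methods and the submitters' processing notes, the authors trimmed reads, aligned them to hg38 with BWA and ran MACS version 2 on each sample. The methods name a broad setting, while the lists are laid out as narrowPeak. The threshold, the handling of duplicate reads and the control library are not given in the sources used here. The deposited fold enrichment divides summit reads plus 1 by local background plus 1. Summit p-value and q-value were deposited as -log10. No values are normalized between samples. Peaks of both 232P lists carry names starting with 231P, another line of the study, and the groups used are those of the sample labels.

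Peaks were assigned to genes of GENCODE 44 with 5 kb on each side by an overlap of at least 1 bp. No peak reached past the end of its chromosome in hg38. A TSS mark is a peak within 1 kb of any annotated start. Coverage is the share of the window in peaks, and domains are peaks of a list chained over gaps of 1 kb or 5 kb. Read height and background at each summit were recovered with the Poisson distribution, where 100% of the peaks gave a whole height within 0.001 of the -log10 p-value. Covered length (log2 of bp plus 200, genes with a peak in at least 2 lists) and highest fold enrichment (genes with a peak in all 6 lists) were tested across genes with limma 3.58.1 in R 4.3.3 over the 3 genotypes, without a term for the replicate number, with Benjamini-Hochberg adjustment at 0.05. The limma step was tested on simulated data over 5598 genes. It recovered all changed genes at a small spread and none at the spread of the real genes, so that an absence of calls is not evidence of no change. Python 3.11.15, pandas 2.3.3, NumPy 2.4.6 and SciPy 1.17.1 were used for the rest.

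The genes named are the 9 PAX genes, the nearest protein-coding gene on each side, the PAX-SIX-EYA-DACH network, cell type markers, and the 5 genes with the coverage profile nearest to the PAX median. Some genes of these lists are not reported here. The members and lists were chosen with earlier results of these data known. The definition of a CpG-rich start was set after the values at the starts were seen. The alternatives were stricter thresholds, equal numbers of peaks, other windows, overlaps, gaps, filters and pseudocounts, no centring, a replicate block and leaving out each sample. Leaving out 232P samples in the count of genes below WT, equal numbers of peaks there, and the count within replicate numbers, were added after seeing the data.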

Additional observations from a re-analysis of the deposited data

How the results depend on the processing

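Under every setting run, 8 PAX genes had a peak in all lists and no PAX gene was called by limma, which does not bear on stability since the test could hardly make calls in this design. At a -log10 q-value of at least 5, 5 PAX genes had a TSS mark in all 6 lists (PAX2, PAX3, PAX4, PAX6 and PAX7), against 2.78% of all genes, and the 9 windows were covered to 20.9% in WT, 20.9% in 231K and 12.1% in 232P. Leaving out 1 replicate gave 25.3% to 28.4% in WT, 23.4% to 29.5% in 231K and 15.2% to 22.9% in 232P. Without a filter on genes, limma called 15, 3 and 7 genes for covered length in 231K against WT, 232P against WT and 232P against 231K, where most genes have no peak and a spread of 0. For highest fold enrichment in 232P against WT it called 2 genes at a -log10 q-value of at least 5 and 2 with a covered length of at least 1 kb, and the cause was not tested. With the replicate number as a term (replicate block) limma called 0 genes in each comparison. Deviations of samples with the same number correlated at 0.233, 0.324 and 0.209 over 5598 genes in the 3 comparisons. The labels do not say what a number shares.

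The log2 changes of covered length changed sign as follows, none past the threshold. In 231K against WT, PAX1 was at -0.0108, PAX3 at -0.0328 and PAX9 at -0.0023 at a -log10 q-value of at least 5, PAX1 at -0.026 at a q-value under 0.05, PAX1 at -0.0747 and PAX9 at -0.19 with equal numbers of peaks, PAX2 at 0.0243 and PAX8 at 0.0538 without the flanks, PAX1 at -0.0032 and PAX9 at -0.0092 with a pseudocount of 1000 bp, and PAX1 at -0.0597 and PAX9 at -0.0654 without centring or without a filter. In 232P against WT, PAX9 was at -0.0425 with equal numbers of peaks. Without centring or without a filter, the 232P changes against WT were -0.42 in PAX1, -0.51 in PAX2, -0.58 in PAX3, -0.46 in PAX4, -0.27 in PAX6, -0.46 in PAX7, -0.77 in PAX8 and -0.85 in PAX9. Against 231K they were -0.36 in PAX1, -0.43 in PAX2, -0.61 in PAX3, -0.11 in PAX6, -0.54 in PAX7, -0.66 in PAX8 and -0.79 in PAX9, and PAX9 was at -0.0061 without the flanks. These settings differ from the main one in that no sample median is subtracted, since with all genes it is that of genes without a peak.

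Leaving out 1 sample gave, in 231K against WT, -0.30 to 0.30 in PAX1, -0.30 to 0.26 in PAX2, -0.0866 to 0.28 in PAX3, -0.31 to 0.11 in PAX6, -0.24 to 0.14 in PAX8 and -0.18 to 0.17 in PAX9. In 232P against WT it gave -0.26 to 1.64 in PAX1, -0.27 to 1.49 in PAX2, -0.20 to 1.51 in PAX4 and -0.26 to 0.77 in PAX9, and against 231K -0.27 to 1.63 in PAX1, -0.27 to 1.496 in PAX2, -0.0785 to 1.07 in PAX7 and -0.27 to 0.77 in PAX9. The negative values in 232P are those without replicate 1. The length of a domain rested on the gap allowed. For PAX8 it was 6.91 kb for single peaks, 19.3 kb with a gap of 1 kb and 137 kb with 5 kb.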

Other observations

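The genes next to the PAX genes ranged from those without a peak in any list to those with a peak in all 6. Beside PAX1, NKX2-2 and FOXA2, regulators of the ventral neural tube, had a peak in all 6 lists, with a median coverage of 40.1% and 49.5%. They lie 191.6 and 862.5 kb from PAX1. Beside PAX9, NKX2-8 had a peak in all 6 lists (52.1%, 75.0 kb away), as had EPHA4 beside PAX3 (60.7%, 625.7 kb away). HIF1AN and SLF2 on both sides of PAX2, FSCN3 and SND1 on both sides of PAX4 and MELK and ZCCHC7 on both sides of PAX5 had no peak in any list. PAX4 was thus marked between unmarked neighbours, with FSCN3 8.15 kb and SND1 34.1 kb away from the gene. ELP4, which overlaps PAX6, had a peak in 5 lists, over at most 0.353% of its window, and RCN1 on the other side had 13.8%. SLC25A21, which overlaps PAX9, had 6.23%, and PSD4, 6.60 kb from PAX8, had 11.9%, both with a peak in all 6 lists. SGPP2, beside PAX3, had 0.0875%, with a distance of 125.5 kb between the genes. TAS1R2 beside PAX7 had 5.32%, ZNG1B beside PAX8 1.00% and KLHDC7A beside PAX7 a peak in 1 list.

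Among genes outside the PAX windows, the coverage of ERICH4, POU3F1, HBA1, MT1M and OR10H5 over the 6 lists was nearest to the median profile of the 8 marked PAX genes, with root mean square differences of 2.77 to 3.98 percentage points over 6 lists. That profile was 32.6% and 42.1% in WT, 29.8% and 38.2% in 231K, and 24.5% and 26.5% in 232P. POU3F1, a transcription factor of the nervous system, had 35.1% and 45.9% in WT, 27.6% and 42.9% in 231K, and 24.3% and 29.7% in 232P.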
